A study of Mus musculus with 2 samples.

Results

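Genes of cell junctions were examined in mouse bone marrow progenitors treated to delete Cebpa, which encodes the myeloid transcription factor C/EBPα, and in progenitors given vehicle. The set holds every row of the expression table with a single symbol that names a claudin, a cadherin with a numbered Cdh symbol, a connexin, a ZO protein (Tjp), a JAM protein, a nectin (Pvrl), a desmoglein, a desmocollin or a plakophilin, together with Ocln, F11r, Esam and Jup. This gave 94 genes of 23309 rows. Both groups were lineage-depleted marrow cells of genotype Cebpaf/f;CreER that had been transduced with the retroviruses MIGR1-HA-Hoxa9 and MIGR1-Flag-Meis1 and grown with IL3. They differ in a treatment of 72 h, with ethanol as the vehicle or with 5 nM 4OHT, the tamoxifen metabolite that activates CreER. Cells with CreER but intact Cebpa alleles were not analysed here, so an effect of losing Cebpa and another effect of 4OHT or Cre cannot be told apart. Neither the promoter that drives CreER nor the number of donor mice is stated in the sources used here.

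Junctions join neighbouring cells in sheets. Claudins and occludin are membrane proteins that form the strands of tight junctions, and the ZO proteins tie those strands to actin. JAM proteins and nectins are immunoglobulin-like adhesion molecules, classical cadherins hold adherens junctions together through catenins, desmogleins and desmocollins do the same in desmosomes through plakoglobin and plakophilins, and connexins build gap junction channels. Blood cells form no such sheets, although some of these proteins serve in homing, in contact with stroma or in signalling.

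There was 1 sample per condition, which joined 2 replicates, so each gene has a single value per condition, without a measure of replicate spread. Values are FPKM, fragments scaled by transcript length and library size, and levels of different genes are compared on this scale only. Rises and falls are those with status OK and q under 0.05 in the authors' deposited table, and the sources used here do not give whether that test saw the replicates apart. The smallest deposited p was 5e-05, with a deposited q of 0.00165. Genes at that q therefore cannot be ranked by it. Cebpa itself had 109 FPKM under vehicle and 42.8 FPKM under 4OHT, 39.2% of the vehicle level. The table holds no read counts, but low rows showed the relative depth: in 60 rows the 4OHT value was 0.853 times the vehicle value to within 2e-05, and in 23 and 12 further rows it was 2 times and 0.5 times that ratio. A fragment was thus worth less after 4OHT, as for a library with 1.17 times the fragments. In 8 short olfactory receptor rows the lowest 4OHT values, multiplied by locus length in kb, lay between 0.0158 and 0.0165, which was taken as the worth of 1 fragment on 1 kb. The fragment numbers below rest on that step and on the longest protein-coding transcript of GENCODE release M21, and they are rough.

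Markers of blood cells were present and most of those of sheet-forming tissue were nearly absent. All 10 haematopoietic markers, among them Ptprc, Spn and Cd34, reached 1 FPKM, with a sum of 1547 FPKM under vehicle and 1795 FPKM under 4OHT. Of these 2 were higher, Cd34 (284 and 493 FPKM) and Kit (20.1 and 32.8 FPKM), and none was lower. None of 10 epithelial markers did. Their sums, Cdh1 included, were 0.496 and 1.42 FPKM, 2 of them were higher (Epcam and Cdh1, given below), and the keratin genes Krt5, Krt14, Krt18 and Krt19 were listed at 0 in both. Of 10 endothelial markers 3 reached 1 FPKM, mainly Pecam1, which leukocytes also express (214 and 189 FPKM). The others were Egfl7 (12.1 and 12.4 FPKM) and Flt1 (1.19 and 0.701 FPKM), and neither was called. Cdh5 and Kdr were under 0.01 FPKM and Cldn5 was listed at 0. Of 10 stromal markers 1 reached 1 FPKM, Pdgfrb, which rose from 6.62 to 13.3 FPKM. Another of them, Lepr, fell from 0.678 to 0.283 FPKM, and Col3a1, Dcn, Lum and Postn were listed at 0. Monocyte and macrophage markers summed to 1001 FPKM under vehicle and 613 FPKM under 4OHT, with 6 of 9 lower. Mast cell and basophil markers summed to 762 and 1255 FPKM, with 4 of 10 higher. These were Cpa3, which made most of both sums (562 and 975 FPKM), Gata2, Slc18a2 and Kit, the last also a haematopoietic marker here. Mcpt8 (61.2 and 61.0 FPKM), Hdc, Ms4a2, Tpsb2 and Fcer1a were not called, and Mcpt4 was listed at 0. Of all tested rows 3.11% were lower and 2.8% higher. In bulk samples such as these, fewer cells of a type and less RNA per cell cannot be told apart.

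Most junction genes were silent or close to it. Of the 94 genes, 36 were listed at 0 in both conditions (38.3%, against 29.3% of all rows), 29 were above 0 but under 0.1 FPKM, 16 lay between 0.1 and 1 FPKM, and 13 reached 1 FPKM in the higher condition (13.8%, against 47.1% of all rows). A listing at 0 may be a failed estimate in some rows, since Hmgcs1, a cholesterol synthesis gene that cells use widely, was listed at 0. The deposited locus of Hmgcs1 is on 13_random, however, while all 94 junction genes lie on numbered chromosomes or X. Whether any of their zeros is a failed estimate was not tested. Desmosomal cadherins were the emptiest family, with 7 of 9 at 0 and the others, Dsg2 and Dsg3, at 0.00294 and 0.00330 FPKM in 1 condition each. Claudins had 12 of 25 genes at 0, connexins 9 of 20 and cadherins 8 of 23. The ZO proteins with occludin, the JAM family, the nectins and the plakoglobin group had no gene at 0 in both. Among genes above 0 in only 1 condition, 11 had a value after 4OHT and 3 in vehicle cells, and none of those values passed 0.1 FPKM.

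**Figure D1:**
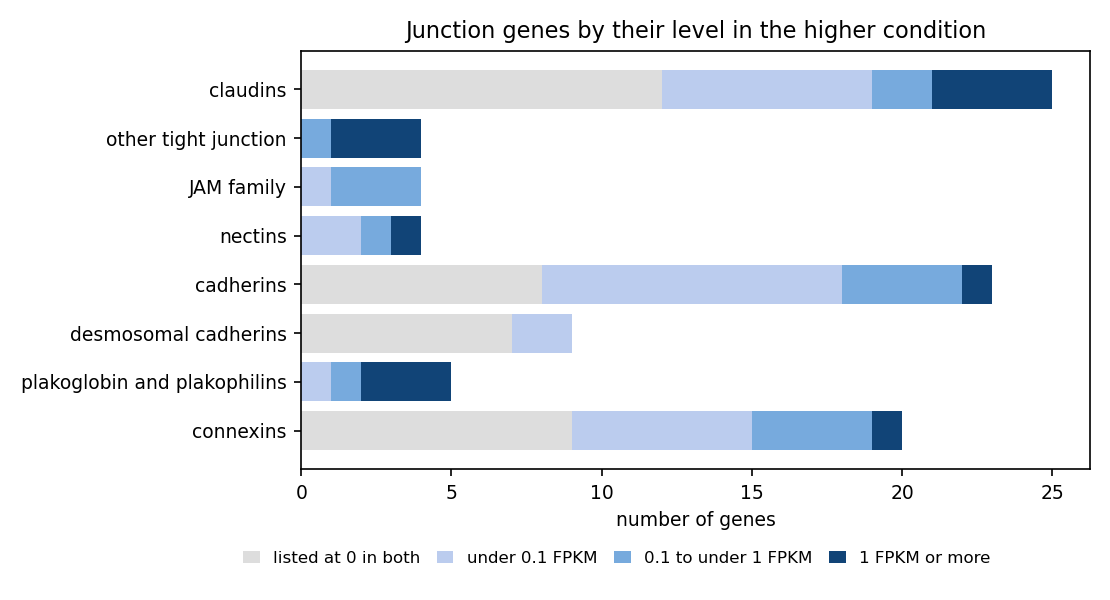
Number of junction genes in each family (bar length) by the level reached in the higher of the conditions, in FPKM. Desmosomal cadherins have no gene above 0.1 FPKM, and 13 of the 94 genes reach 1 FPKM.

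The comparison of 4OHT with vehicle moved 5 of these genes. Tjp1, Cdh17 and Cdh1 rose, and Cldn11 and Cldn15 fell. The authors tested 21 of the 94, so 23.8% of the tested genes were called, where 5.91% of all tested rows were, and for rises the share in the whole table was 2.8% and for falls 3.11%. The 73 others were not tested in the deposited table, and all of them lay under 1 FPKM. Among the 13 genes of at least 1 FPKM, the median log2((4OHT FPKM + 1)/(vehicle FPKM + 1)) was -0.17, with 9 below 0 and 4 above, against a median of 0.00 over the 10989 rows of that level. On the same scale 2 of the 13 were at least 2-fold lower and none was 2-fold higher, while 1.3% and 0.764% of those 10989 rows were. That pseudocount shrinks the ratio of low genes, and Tjp1 stood just short of 2-fold at a log2 ratio of 0.96.

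**Figure D2:**
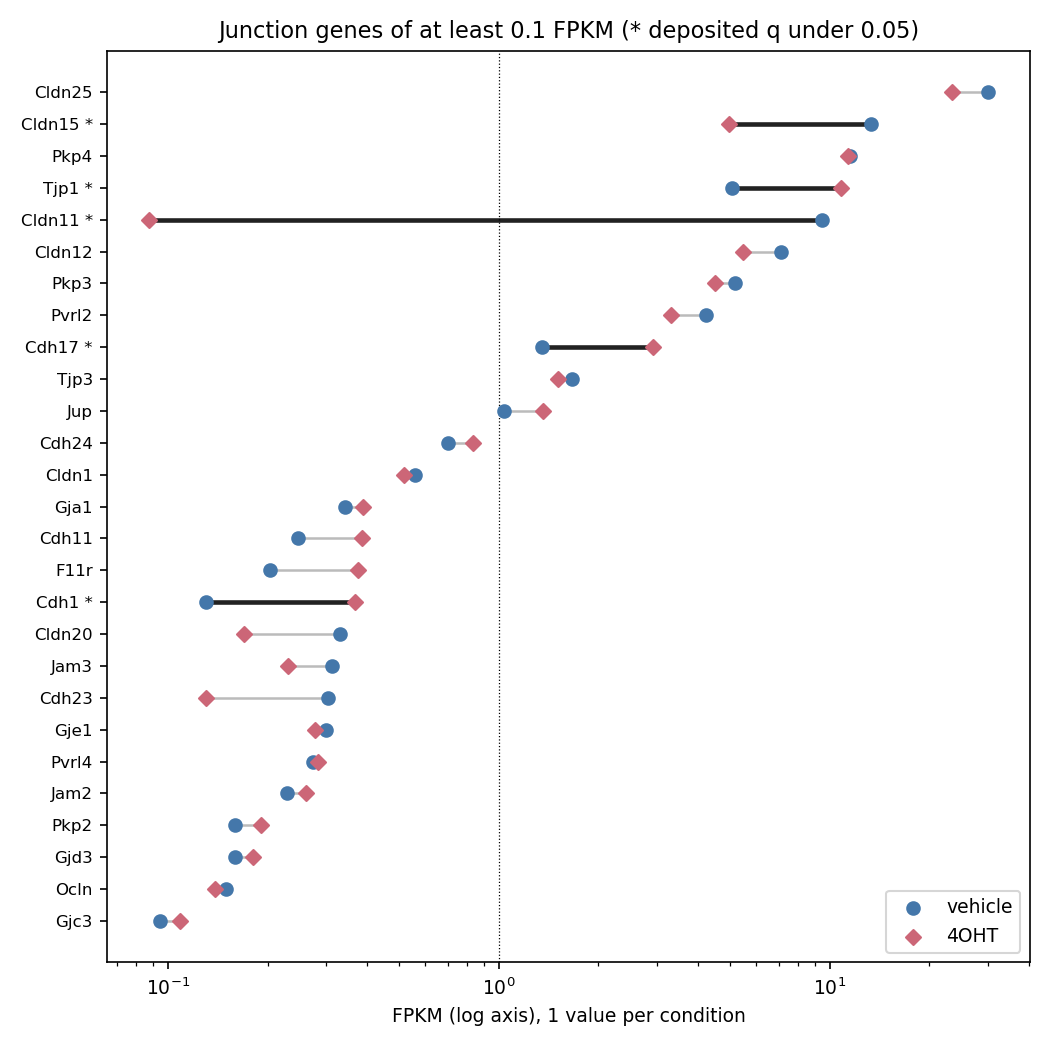
FPKM of 27 of the 29 junction genes of at least 0.1 FPKM on a log axis, with 1 point for vehicle (circle) and 1 for 4OHT (diamond); an asterisk and a dark line mark a deposited q under 0.05. Cldn11 drops from 9.49 to 0.0879 FPKM, while most other lines are short.

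Claudins carried both falls. Cldn11, the claudin of myelin and of the blood-testis barrier, had 9.49 FPKM under vehicle and 0.0879 FPKM under 4OHT. Vehicle cells thus held it at a level between those of Cldn12 and Pkp4, and treated cells were nearly without it. It fell 108-fold, at a q of 0.00806 in the authors' deposited table, and this was rank 2 by linear ratio among the 372 rows that fell. About 930 fragments in vehicle cells and 10 after 4OHT lay behind those values. Of 10 oligodendrocyte and Schwann cell markers, with sums of 35.2 and 36.3 FPKM, only 3 reached 1 FPKM, and none was called. These were Mbp (14.7 and 15.0 FPKM), Cnp (16.7 and 18.2 FPKM) and Mag (3.45 and 2.70 FPKM). The others were too low to show a fall, and Sox10, Olig1, Olig2 and Mobp were listed at 0. Of 9 monocyte and macrophage markers 6 were lower as well, while Csf1r, Emr1 and Ccr2 were not called. The part of such cells in the Cldn11 result was not tested. The deposited mm9 locus of Cldn11 is on chromosome 3, 31048842 to 31063248.

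Cldn15, a claudin of intestinal epithelium that forms pores for cations, had 13.4 FPKM under vehicle and 4.96 FPKM under 4OHT. It fell 2.69-fold, which left 37.2%, at a q of 0.00165 in the authors' deposited table, and held rank 101 of the 372 falls. Behind it stood about 1300 and 580 fragments. It lies on chromosome 5 of mm9 at 137443739 to 137451715. The claudin rows together summed to 61.0 FPKM under vehicle and 34.8 FPKM under 4OHT, a difference of 26.3 FPKM, of which Cldn11 made 9.40, Cldn15 8.39 and Cldn25 6.69 FPKM. Without Cldn25, a row described next, the sums were 31.0 and 11.4 FPKM, which left 36.9%.

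The other claudins of note did not pass the test. Cldn25 was the most abundant junction gene, with 30.0 FPKM under vehicle and 23.3 FPKM under 4OHT, at a q of 0.296 in the authors' deposited table. RefSeq gives that symbol as an older name of Cldnd1 on chromosome 16, where the deposited locus lies (58728023 to 58734360), so this row was read as a claudin domain relative and not as a further claudin of the strands. Cldn12, a claudin without the usual tail that binds ZO proteins, had 7.12 and 5.46 FPKM, with q = 0.384 there. Both were lower by an unadjusted p under 0.05, with deposited p of 0.0318 and 0.0463. Cldn1, a main claudin of skin, had 0.559 and 0.518 FPKM. Cldn20 had 0.331 and 0.169 FPKM and was not tested, and its locus spans those of Tfb1m and Tiam2. Cldn3, Cldn5, Cldn6, Cldn8, Cldn9, Cldn13, Cldn14, Cldn16, Cldn17, Cldn18, Cldn23 and Cldn24 were the 12 claudins at 0, and the other 7 stayed under 0.1 FPKM. Cldn22, a short row among those 7, had 0.0382 and 0.0326 FPKM, which is the ratio of equal fragment numbers to within 2e-05.

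The upstream windows of the called tight junction genes are shown because C/EBPα, whose mRNA was lower after 4OHT, binds DNA directly. Each is the 250 bases before the RefSeq start on GRCm38.p6, a later build than the mm9 of the loci above. They are chr3:31149670-31149919 (+ strand) for Cldn11, chr5:136967619-136967868 (+ strand) for Cldn15 and chr7:65371245-65371494 (- strand) for Tjp1. Capitals mark the CCAAT box (CCAAT on either strand, read as ATTGG on the other).
Cldn11: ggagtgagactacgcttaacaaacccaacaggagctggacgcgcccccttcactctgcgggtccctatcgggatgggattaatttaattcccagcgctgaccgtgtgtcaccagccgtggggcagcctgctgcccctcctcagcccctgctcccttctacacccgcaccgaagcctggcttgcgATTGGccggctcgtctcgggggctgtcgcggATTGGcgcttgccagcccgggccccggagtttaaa
Cldn15: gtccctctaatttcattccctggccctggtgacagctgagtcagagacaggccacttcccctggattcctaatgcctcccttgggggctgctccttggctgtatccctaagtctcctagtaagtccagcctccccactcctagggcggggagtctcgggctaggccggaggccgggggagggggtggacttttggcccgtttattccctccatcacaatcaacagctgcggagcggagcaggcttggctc
Tjp1: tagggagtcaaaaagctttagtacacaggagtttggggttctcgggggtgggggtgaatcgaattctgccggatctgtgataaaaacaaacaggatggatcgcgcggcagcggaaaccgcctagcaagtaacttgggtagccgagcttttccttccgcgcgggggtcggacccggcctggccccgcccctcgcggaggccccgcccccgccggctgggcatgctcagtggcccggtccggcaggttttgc
The Cldn11 window held 2 CCAAT boxes, and those of Cldn15 and Tjp1 held none. The letters TTGCNNAA, a core form of the C/EBP site searched on both strands, were in none of the 3 windows. They were in 9.56% of all 32851 windows, and CCAAT was in 33.8%. For 54 of the 94 genes a window was at hand, 71 windows in all, of which 2 held TTGCNNAA (of Cdh9 and Cldn14, both under 0.1 FPKM) and 27 held CCAAT. With TTGCNNAA absent, no CCAAT box there overlaps it. G and C made up 63.6% of the Cldn11 window, 60.8% of that of Cldn15 and 63.2% of that of Tjp1, against a median of 52.4% over all windows. A match or its absence in these windows describes the letters only.

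Among the plaque proteins that anchor tight junctions, 1 of the 3 ZO genes rose. Tjp1, the gene of ZO-1, had 5.06 FPKM under vehicle and 10.8 FPKM under 4OHT. It rose 2.14-fold, at a q of 0.00165 in the authors' deposited table, on about 1900 and 4700 fragments, and held rank 114 of the 335 rises. Its deposited locus is on chromosome 7 of mm9, 72441051 to 72516130. Tjp3, the gene of ZO-3, had 1.66 and 1.51 FPKM and was not called, and its locus overlaps that of Apba3 (14.7 and 12.7 FPKM). Ocln, the gene of occludin, was low in both, at 0.150 and 0.138 FPKM.

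JAM proteins and nectins held no called gene. F11r, the gene of JAM-A, had 0.204 FPKM under vehicle and 0.375 FPKM under 4OHT, at a q of 0.456 in the authors' deposited table. Jam2, at 0.228 and 0.261 FPKM, and Jam3, at 0.314 and 0.230 FPKM, were not tested. Esam, an adhesion molecule of endothelium, platelets and stem cells, had 0.0382 and 0.0522 FPKM. No member of this family therefore reached 1 FPKM. Of the nectins only Pvrl2, the gene of nectin-2, which is also a ligand of lymphocyte receptors, did, with 4.23 and 3.31 FPKM and q = 0.690 there. Pvrl4 had 0.274 and 0.284 FPKM, and Pvrl1 and Pvrl3 stayed under 0.1 FPKM.

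Cadherins carried the other rises, from low levels. Cdh17, LI-cadherin, an intestinal cadherin that lymphoid cells also use, had 1.35 FPKM under vehicle and 2.93 FPKM under 4OHT. It was the only numbered cadherin above 1 FPKM, and rose 2.17-fold, at a q of 0.00165 in the authors' deposited table, on about 240 and 620 fragments (chromosome 4 of mm9, 11685304 to 11745052). Cdh1, E-cadherin, the main cadherin of epithelium, had 0.131 FPKM under vehicle and 0.369 FPKM under 4OHT. It rose 2.82-fold, with q = 0.0235 there, on about 30 and 100 fragments (chromosome 8, 109127268 to 109194146). Cdh1 was the only called gene of the 8 tested junction genes under 1 FPKM, and of all tested rows under 1 FPKM 7.15% were called. Epcam, an epithelial surface protein and E-cadherin's companion among the markers, rose from 0.316 to 0.957 FPKM, with q = 0.0111 there, while the keratins named above were at 0.

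The remaining cadherins did not pass the test or were not tested. Cdh24 had 0.701 and 0.838 FPKM, and Cdh11, a cadherin of mesenchyme, 0.248 and 0.387 FPKM, at a q of 0.553 for the latter in the authors' deposited table. Cdh23, a cadherin of the inner ear hair bundle, had 0.305 FPKM under vehicle and 0.131 FPKM under 4OHT, with q = 0.923 there. Its locus holds that of 4632428N05Rik, an immune checkpoint gene which RefSeq now names Vsir, and that row fell from 19.9 to 10.4 FPKM with q = 0.00165 there. The part of reads from that gene in the Cdh23 value was not tested. Cdh2, N-cadherin, which has been studied in contact of stem cells with the marrow niche, had 0.00363 and 0.00976 FPKM. Cdh5, the cadherin of endothelium, had 0.00793 and 0.00341 FPKM.

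The plakophilin and plakoglobin genes ranged from near 0 to above 10 FPKM. Pkp4, a plakophilin relative found at adherens junctions, had 11.5 and 11.3 FPKM, and Pkp3 5.19 and 4.49 FPKM, at a q of 1.00 for each in the authors' deposited table. Jup, the gene of plakoglobin, a catenin of desmosomes and adherens junctions, had 1.04 FPKM under vehicle and 1.36 FPKM under 4OHT, with q = 0.629 there. Pkp2 had 0.159 and 0.191 FPKM and Pkp1 0.0106 and 0.00937 FPKM. None of the 5 was called. Dsp, the gene of desmoplakin, the plaque protein that ties desmosomes to keratin filaments, had 0.254 and 0.352 FPKM, with q = 0.649 there, and the related Ppl and Evpl stayed under 0.1 FPKM.

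Connexins were near silence throughout. Of 20 rows 1 reached 1 FPKM, 3 were tested and none was called. Gja1, connexin 43, the connexin best known from marrow stroma, had 0.343 and 0.389 FPKM and was not called. Gje1 had 0.301 and 0.277 FPKM. Gjd3, at 0.160 and 0.181 FPKM, and Gjc3, at 0.0949 and 0.109 FPKM, were not tested. All 20 connexin rows summed to 2.00 FPKM under vehicle and 1.73 FPKM under 4OHT, less than the single gene Pkp3.

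**Figure D3:**
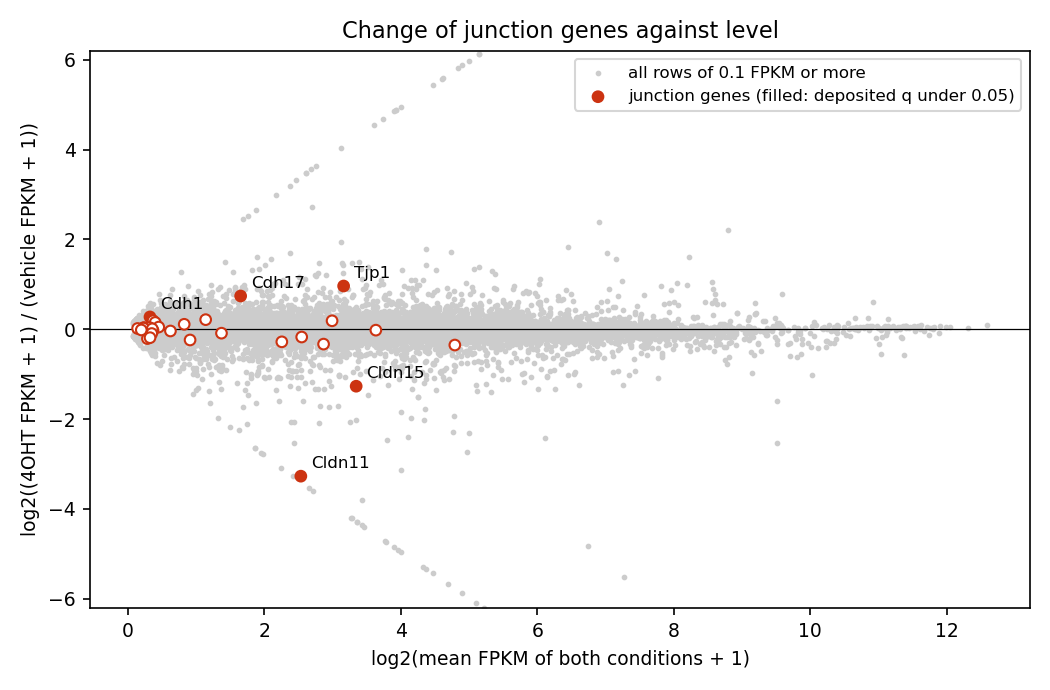
Log2((4OHT FPKM + 1)/(vehicle FPKM + 1)) against log2(mean FPKM + 1) for all rows of at least 0.1 FPKM (grey; 3 lie outside the axis) and for the junction genes (red; filled where the deposited q was under 0.05). Cldn11 stands at -3.27 and Cldn15 at -1.27, while Tjp1 is at 0.96 and the unfilled points lie near 0.

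The partners of these proteins were followed through 9 lists, some of whose entries are also in the set above. Among tight junction plaque and marvel proteins, 2 of 9 tested genes rose and 1 fell, where 2.8% and 3.11% of all tested rows did. The median log2 ratio was 0.04 over the 8 of at least 1 FPKM. Cgnl1, the gene of paracingulin, which links junctions to regulators of the cytoskeleton, fell from 15.6 to 6.55 FPKM, at a q of 0.00165 in the authors' deposited table. Marveld2, the gene of tricellulin, found where 3 cells meet, rose from 10.7 to 16.2 FPKM, with q = 0.0148 there. Tjp1, already counted above, was the other riser. Csda, a transcription factor that binds ZO-1, and Sympk, an RNA processing scaffold also seen at tight junctions, were the most abundant, at 250 and 234 FPKM and at 53.5 and 54.9 FPKM.

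The catenin genes Ctnnb1, Ctnna1 and Ctnnd1 had more FPKM than any numbered cadherin. Ctnnb1, β-catenin, had 124.9 and 132 FPKM, Ctnna1, α-catenin, 24.8 and 25.8 FPKM, and Ctnnd1, p120 catenin, 24.1 and 24.97 FPKM. Ctnnal1, a relative of α-catenin, had 4.12 and 4.26 FPKM. The other catenins were lower, with Ctnna2 at 0.766 and 0.664 FPKM, Ctnna3 under 0.1 FPKM, Ctnnd2 listed at 0 and Jup at the level given above. None of 10 tested genes in that list was called, and its median was 0.04. None of 12 tested polarity genes was called, with a median of 0.00; Lin7c (31.2 and 26.7 FPKM) and Scrib (18.6 and 18.3 FPKM) were the highest. The desmosome list held no called gene among 4 tested, with Perp, a p53 target of desmosomes, at 54.7 and 50.6 FPKM and a median of -0.11. The immunoglobulin list had 5 tested genes and none called, with a median of -0.07; Pecam1, Cd99l2 (6.997 and 8.44 FPKM) and Pvr (8.08 and 7.64 FPKM) were the highest.

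Genes that cut or meet cadherins held a pair of falls. Adam17, a sheddase of many surface proteins, fell from 82.6 to 53.3 FPKM, at a q of 0.00569 in the authors' deposited table. Itgb7, whose product pairs with αE to bind E-cadherin, fell from 107.8 to 74.7 FPKM, with q = 0.0227 there. Itgae, the gene of αE, was low in both conditions, at 0.113 and 0.104 FPKM, and was not tested. Adam10, the sheddase best known for cleaving cadherins, had 57.1 and 64.3 FPKM and was not called. That list had 2 of 6 tested genes lower, where 3.11% of all tested rows were, and a median of -0.15. Among transcription factors that repress or activate junction genes, Zeb2 (7.76 and 6.23 FPKM) and Zeb1 (2.78 and 3.30 FPKM) were the only 2 tested and neither was called, with a median of -0.05, and the epithelial activators Grhl2, Ovol2, Elf3 and Esrp1 were at or near 0. Of the pannexins, Panx1, a channel of the plasma membrane, had 19.7 and 22.7 FPKM and was not called, and Panx2 had 0.00942 and 0.0257 FPKM. Of 3 tested claudin domain relatives none was called, with a median of -0.28; Emp3 had 208 and 198 FPKM, and Cldn25 was the next highest.

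**Figure D4:**
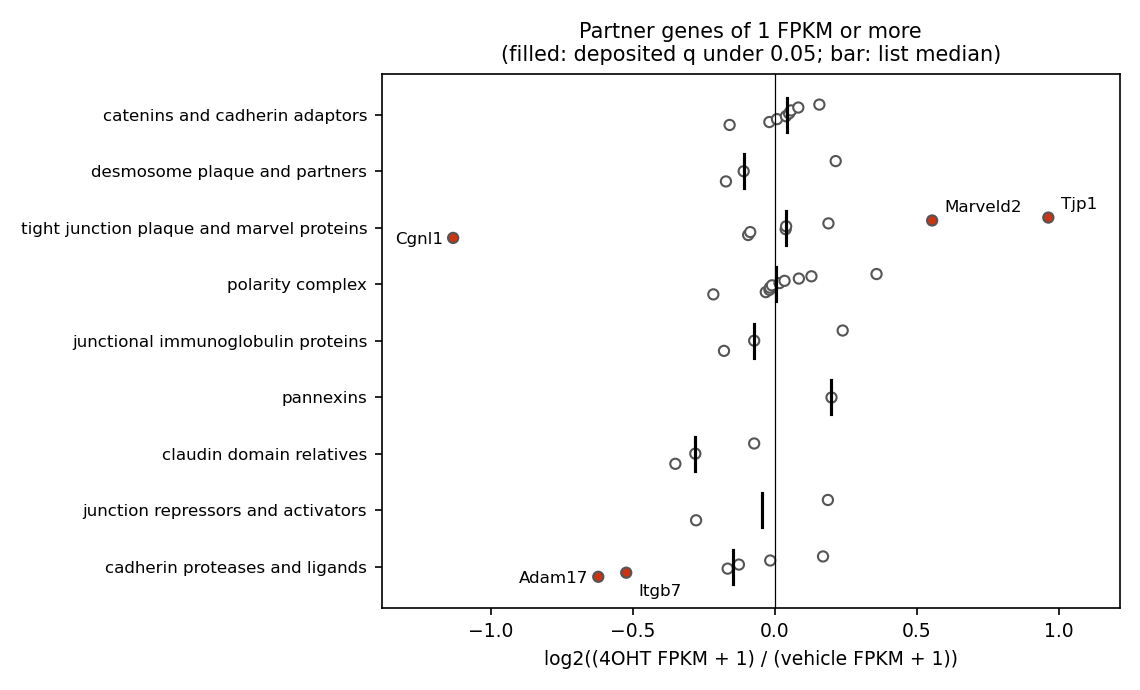
Log2((4OHT FPKM + 1)/(vehicle FPKM + 1)) of each partner gene of at least 1 FPKM, 1 point per gene, grouped by list; filled points had a deposited q under 0.05 and bars are list medians. Cgnl1 at -1.13 and Tjp1 at 0.96 mark the ends, and the medians lie between -0.28 and 0.20.

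Rows with a linear ratio most like that of Cldn11 were sought among called rows of at least 1 FPKM, by the distance in log2 ratio over the same pair of samples. The nearest 5 were Gbp4 (145-fold lower, distance 0.42), Thbs1 (53.8-fold, 1.00), Gbp8 (53.3-fold, 1.02), Gbp9 (43.2-fold, 1.32) and Tgm2 (32.8-fold, 1.72). After 4OHT, Gbp4, Gbp8 and Gbp9 had 0.0249, 0.0764 and 0.0420 FPKM, so their ratios rest on low values, as does that of Cldn11. Thbs1 and Tgm2 fell from higher levels and still had 5.62 and 6.31 FPKM. Gbp4, Gbp8 and Gbp9 are guanylate-binding GTPases of similar sequence, whose reads may be shared, Thbs1 encodes a matrix protein and Tgm2 a transglutaminase, and none is a junction gene.

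Of the 13 tested rows within 100 kb of the called genes, 1 was called, where 5.91% of all tested rows were. Near Cldn11, 3 rows were tested and none was called: Skil had 3.39 and 3.23 FPKM, Slc7a14 0.420 and 0.315 FPKM, and the polarity kinase gene Prkci 6.31 and 6.26 FPKM. Near Cldn15, 1 of 8 tested rows was called, Plod3, a collagen-modifying enzyme gene, which fell from 59.9 to 35.9 FPKM, while Fis1, the closest row, had 166 and 149 FPKM. Near Cdh1, the neighbouring Cdh3, P-cadherin, had 0.00992 and 0.00462 FPKM, and Tango6 had 3.98 and 3.88 FPKM. Near Cdh17, Gem had 0.694 and 1.34 FPKM, at a q of 0.0909 in the authors' deposited table, and no other row lay within that distance of Tjp1. The loci of 7 of the 94 genes overlapped another row, and Tjp3 was the only one of them at 1 FPKM or more, so none of the 5 called genes shared its locus with another row.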

How the data were processed

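RNA was sequenced from 1 vehicle sample and 1 4OHT sample, each joining 2 replicates, with an Illumina TruSeq RNA library kit per the labels' protocols. Cuffdiff 2.0.2, Bowtie2 2.0.0.7, CASAVA 1.8.2 and the build mm9 appear in the submitters' processing notes without a stated role. The sources used here give neither gene annotation nor strand, so overlapping or antisense genes cannot be told apart, and reads shared by similar copies may be split among them. The authors deposited 1 table with, per the file headers, an FPKM value per gene and condition, and a p-value and q-value per row. Adjusting the deposited p-values of the 11953 tested rows (status OK) by Benjamini-Hochberg gave the deposited q to within 5.28e-07.

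No test was run here, since each condition has 1 value. Ratios, counts, medians and the motif search were computed with Python 3.11.15 and pandas 2.3.3, checked on simulated data. Named genes were Cebpa, the called genes, all of at least 1 FPKM in the higher condition, genes from 0.1 to 1 FPKM that differed 2-fold, and in each list the called and the 2 highest; others were named after their values were seen. A few members that this rule names are not reported here. Lists were matched by symbol or, for 1 entry, by an older symbol. Erythroid markers (9 of 10 matched, sums of 98.7 and 94.3 FPKM, none called) and megakaryocyte markers (66.2 and 116 FPKM, 2 of 10 higher) were also measured. The members and lists were chosen with earlier results of these data known. Alternatives changed the threshold, pseudocount, floor and scaling.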

Additional observations from a re-analysis of the deposited data

How the results depend on the processing

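No paired analysis was possible because each condition has 1 value that joins its replicates, and for the same reason no replicate could be left out. The 3 rises became 2 at q under 0.01 or with a floor of 1 FPKM, where Cdh1 dropped out, and the 2 falls were kept in number; by an unadjusted p under 0.05 there were 4 falls, Cldn25 and Cldn12 being the additions, and the same 3 rises. The number of genes of at least 1 FPKM that were 2-fold higher, 0 with a pseudocount of 1 FPKM, was 1 with 0.5 FPKM, 2 with 0.1 FPKM, and 2 at 1.5-fold. The median log2 ratio of -0.17 became -0.00134 over every gene above 0, most of which are under 1 FPKM. With a floor of 0.1 FPKM 29 genes counted as measured, in place of 13. No log2 ratio of the 15 named genes changed sign under another pseudocount or under scaling by the median ratio. Leaving out Cldn25 and Cldn26, which RefSeq now calls Cldnd1 and Tmem114, was chosen after seeing the data, as was leaving out genes with overlapping loci; the former changed no count of calls, and the medians were -0.13 and -0.205. Depth limits the low genes most: the Cldn11 value after 4OHT and the Cdh1 value in vehicle cells rest on few fragments.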

Other observations

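Cadherin superfamily genes outside the numbered Cdh symbols were looked at after the values had been seen. Of 86 such rows (protocadherins, Fat, Dachsous, Celsr, Cdhr and calsyntenin genes), 36 were listed at 0 in both conditions, 6 reached 1 FPKM and 9 were tested. Celsr1, a seven-pass cadherin of planar cell polarity, fell from 8.98 to 5.54 FPKM, at a q of 0.00165 in the authors' deposited table. Its relative Celsr3, which guides axons, fell from 4.99 to 3.35 FPKM, with q = 0.0182 there. No other row of the 86 was called, and 3.11% of all tested rows fell. Pcdh7, the most abundant of them, had 14.8 FPKM under vehicle and 11.6 FPKM under 4OHT, with q = 0.300 there, and the calsyntenin gene Clstn1 had 6.55 and 6.26 FPKM. Pcdhgc3 was the only clustered protocadherin above 1 FPKM, with 2.997 and 2.84 FPKM, and 14 of 15 Pcdha rows were at 0. The clustered protocadherin rows share 1 deposited locus, and the sources used here do not give how reads common to several of them were counted. These Celsr levels exceed that of each numbered cadherin, Cdh17 included.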
